A study of Homo sapiens with 6 samples.

Results

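Expression arrays of cells labelled HCT116 and of cells labelled COLO205, both colon cancer lines, were compared gene by gene, with 2 arrays per label and 4 of the 6 arrays of the series in all. The arrays were grouped by their labels alone, but members and gene lists were chosen with earlier results of these data known. The vehicle and imetelstat arrays of each label were pooled, so that each label had 1 array of cells kept with vehicle and 1 of cells kept for 2 weeks with imetelstat, a lipid-linked oligonucleotide that blocks the template of telomerase. The other 2 arrays of the series were those of OVCAR5, which the paper lists as an ovarian line, under the same treatments. They served as a yardstick for lines listed under different tissues. The tissue of OVCAR5 was not tested, and its signals of colon and ovarian markers are given below. The series holds no other pair of colon labels, so the usual distance between unlike colon lines was not measured. By the labels HCT116 was kept in DMEM medium, while COLO205 and OVCAR5 were kept in RPMI1640, both with serum, and the methods state that the HCT116 cells came from another laboratory and the COLO205 cells from a repository. Medium, source and line cannot be told apart between the labels. The labels name the control agent vehicle, while the methods name a mismatch oligonucleotide as control and the account of the arrays calls the control cells untreated.

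HCT116 is known as a poorly differentiated line with mutated mismatch repair and a normal p53 pathway. COLO205 was grown from the ascites of another patient and is known as a well differentiated line that makes carcinoembryonic antigen. Cell lines of different patients as a rule differ in the genes that they use at all, in the copy number of chromosome arms, and in genes whose level follows a common germline variant. Each of these was therefore read from the arrays. The arrays carry no genotype, so the identity of the cells was described through expression only.

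Signals were mean bead intensities, which were taken to the log2 scale and made alike in distribution over the 6 arrays. Before this step the mean signal was 487.5 and 486.7 on the HCT116 arrays and 458.6 and 359.8 on the COLO205 arrays, vehicle first, so the COLO205 imetelstat array was the dimmest. A gene counted as detected where its probe was brighter than the negative control beads at a detection p below 0.01, and 11413 genes with a detected probe on at least 1 of the 4 arrays were compared. Signals were not corrected for background, so differences of dim genes are understated. Nothing states that the 2 arrays of a label came from separate cultures beyond their treatment, and p-values measure the spread between these arrays, treatment included.

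The arrays of the labels HCT116 and COLO205 differed in few genes. At least 2-fold higher on both HCT116 arrays than on either COLO205 array were 27 genes, 0.237% of those tested, and 8 genes, 0.0701%, were at least 2-fold higher on both COLO205 arrays. By the same count 1187 of 11926 genes parted HCT116 from OVCAR5, 4.74% of the genes tested higher in HCT116 and 5.22% higher in OVCAR5. In the same way 1235 of 11606 parted COLO205 from OVCAR5, 4.7% higher in COLO205 and 5.95% higher in OVCAR5. Genes detected on both arrays of one label, on neither of the other and at least 2-fold apart numbered 7 between HCT116 and COLO205, 0.0613%, against 299 between HCT116 and OVCAR5 and 339 between COLO205 and OVCAR5. Of these 1.05% of genes were on in HCT116 and 1.46% on in OVCAR5, and 0.982% were on in COLO205 and 1.94% on in OVCAR5. All 7 were on in HCT116 and off in COLO205, and none met these 3 conditions in the other direction. More probes were detected on the HCT116 arrays, 17276 and 16856, than on the COLO205 arrays, 16068 and 15627, vehicle first. The part of that in this count was not tested. The median absolute difference over genes was 0.15 on the log2 scale between HCT116 and COLO205, 0.36 between HCT116 and OVCAR5 and 0.38 between COLO205 and OVCAR5. The comparisons share arrays, so their values are set side by side only.

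By limma with Benjamini-Hochberg adjustment over all genes tested, 66 genes were higher in HCT116, 0.578% of those tested, and 26 were higher in COLO205, 0.228%, at an adjusted p under 0.05. These counts depended on single arrays and on the treatment term. Without the COLO205 imetelstat array limma called 1 gene, PROM1, higher in HCT116 and 0 higher in COLO205, when 717 genes had an unadjusted p below 0.05. Without the COLO205 vehicle array it called 18 and 5. Without the HCT116 vehicle array it called 138 and 72, without the HCT116 imetelstat array 223 and 106, and with treatment as a block 251 and 133. The share of calls higher in HCT116 was 71.7%, and it was 91.1% with median scaling and 94% with no scaling, which moved the median difference of all genes to 0.14 and 0.24. Between HCT116 and OVCAR5 limma called 5359 genes, 23.8% of genes higher in HCT116 and 21.1% higher in OVCAR5. Between COLO205 and OVCAR5 it called 5318, 24.4% higher in COLO205 and 21.4% higher in OVCAR5. With 2 arrays against 2 an exact two-sided permutation test of a single value cannot go below 0.333.

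Pairs of single arrays showed the same closeness. The fewest genes at least 2-fold apart between arrays of different labels were found for HCT116 with imetelstat and COLO205 with vehicle, 76 genes or 0.666%, at a Pearson r of 0.98 over genes, which are not independent replicates. The treatments of HCT116 lay farther apart, with 91 genes, and those of COLO205 nearer, with 30. HCT116 vehicle and COLO205 imetelstat stood farthest apart among the 4 arrays, with 229 genes. Any of the 4 arrays differed from either OVCAR5 array in 1555 to 1776 genes. No gene was at least 2-fold apart between both vehicle and both imetelstat arrays of the 4.

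The level of genes along the chromosomes was compared because cancer lines gain and lose chromosome arms, which shifts many genes of a chromosome slightly in one direction. Over 8445 genes detected on all 6 arrays, the median difference per chromosome between HCT116 and COLO205 ran from -0.05 on chromosome 19 to 0.02 on chromosome 15. Between HCT116 and OVCAR5 it ran from -0.16 on chromosome 11 to 0.33 on chromosome 18, and between COLO205 and OVCAR5 from -0.15 on chromosome 14 to 0.34 on chromosome 18. The spread from lowest to highest chromosome was 0.07 for HCT116 and COLO205, against 0.50 and 0.49 for the comparisons with OVCAR5. Chromosomes 1, 4, 10, 12 and X also stood above 0.2 against OVCAR5 under both labels. Chromosome 10, for one, was at 0.31 and 0.34, and chromosome X at 0.23 and 0.26, and they were at -0.00 and 0.02 between HCT116 and COLO205. These are medians over genes and no copy number was measured.

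**Figure D1:**
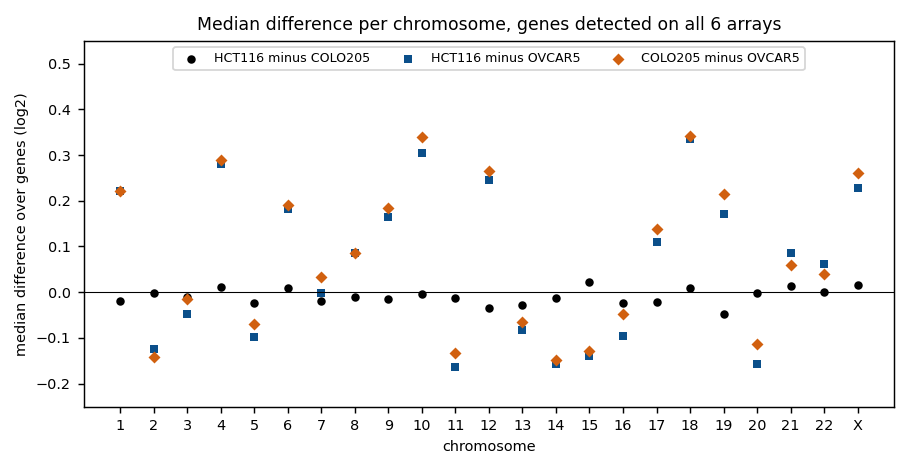
Median difference in log2 signal per chromosome over 8445 genes detected on all 6 arrays, for HCT116 minus COLO205 (black circles), HCT116 minus OVCAR5 (blue squares) and COLO205 minus OVCAR5 (orange diamonds). The black circles lie between -0.05 and 0.02 on every chromosome shown, while the other points reach 0.33 and 0.34.

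Markers of differentiated colon cells were then read, since COLO205 is known for several of them. Of 26 listed genes 22 had a named probe, and only 2 of these, CDX2 and CLDN3, were detected on any of the 4 arrays. CDX2, a transcription factor of intestinal identity, had log2 signals of 8.34 and 8.29 on the HCT116 arrays and 8.31 and 8.16 on the COLO205 arrays. CLDN3, a tight junction protein, was at 7.70 and 8.34 in HCT116 and at 7.86 and 7.31 in COLO205. The arrays of the labels overlapped for both genes, and neither passed limma (adjusted p of 0.87 for CDX2 and 0.54 for CLDN3).

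The other 20 markers were detected on none of the 4 arrays, where their log2 signals lay between 6.46 and 7.04. Of these 9 were detected on both OVCAR5 arrays and 5 on 1 of them, so their probes could report a signal on this chip, and 6 were detected on no array. TSPAN8, a tetraspanin of gut epithelium, was at 6.69 and 6.88 on the arrays labelled COLO205 and at 11.55 and 10.68 on those of OVCAR5. AGR2, a protein folding enzyme of mucus-secreting cells, was at 6.62 and 6.70 against 12.60 and 12.66, and the mucin MUC13 at 6.70 and 6.69 against 10.26 and 10.36. CEACAM5, the gene of carcinoembryonic antigen, was at 6.67 and 7.04 on the arrays labelled COLO205 and at 10.03 and 9.46 on those of OVCAR5. These 20 markers thus had background signals under both labels. For the 6 detected on no array, absence cannot be told from a probe that gives no signal.

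**Figure D2:**
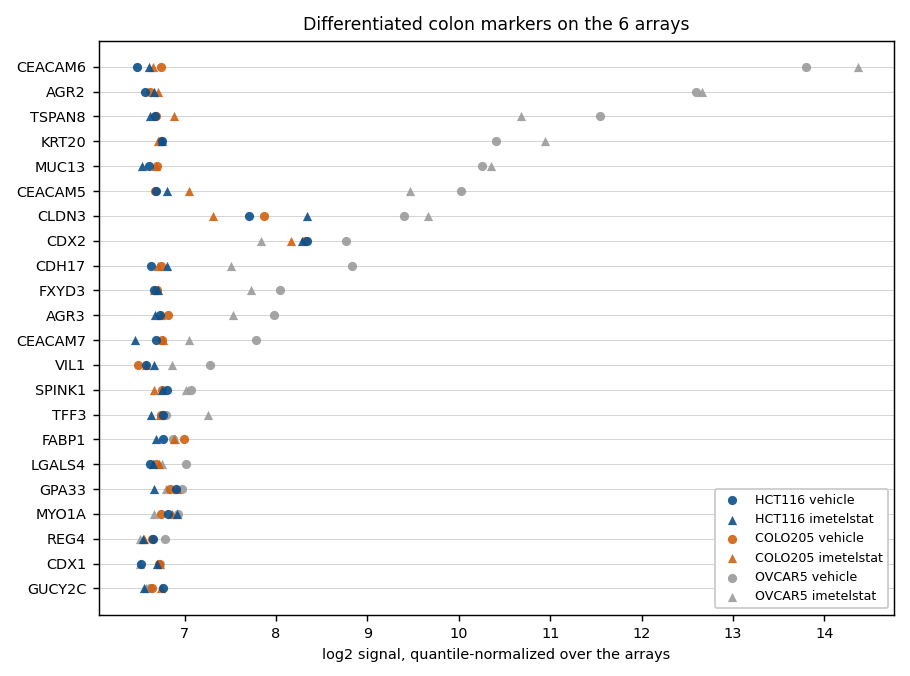
Log2 signal of 22 markers of differentiated colon cells on each of the 6 arrays (circles vehicle, triangles imetelstat, blue HCT116, orange COLO205, grey OVCAR5). Apart from CDX2 and CLDN3, no blue or orange point lies above 7.04, while 9 other markers were detected on both OVCAR5 arrays.

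General genes of simple epithelium were read as well. All 10 listed keratin, adhesion and epithelial regulator genes passed the filter, the tight junction gene CLDN4 through the COLO205 imetelstat array alone, at 6.78 and 6.92 in HCT116 and 6.94 and 7.24 in COLO205. By limma 0 passed in either direction and 2 had an unadjusted p under 0.05, as 11.5% of all genes did, and 3 were higher on both HCT116 arrays and 4 higher on both COLO205 arrays, against 22.1% and 20.4% of all genes. The epithelial adhesion gene EPCAM was at 13.19 and 13.16 in HCT116 and at 12.99 and 13.12 in COLO205. The transcription factor ELF3 had the largest difference of this list, 0.56 (SE 0.15, adjusted p of 0.15 by limma), at 10.89 and 10.80 against 10.34 and 10.21. ESRP1, an epithelial splicing regulator, was at 8.02 and 8.11 against 8.74 and 8.28. Of 17 mesenchymal markers 4 were measured, of 14 leukocyte markers 4, and of 11 ovarian markers 5, and VIM, the mesenchymal filament vimentin, was detected on all 6 arrays, at 7.68 and 7.98 in HCT116 and 8.25 and 7.75 in COLO205.

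Genes whose expression follows a common deletion or regulatory variant were read as the nearest thing to a genotype. Of 20 such genes 14 were measured, and 0 passed limma, had an unadjusted p under 0.05 or were 2-fold apart on both arrays. Over all genes 11.5% had an unadjusted p under 0.05. Their largest difference was 0.22 in size, that of the cytidine deaminase APOBEC3B, at 8.75 and 8.71 in HCT116 and 8.85 and 9.06 in COLO205. GSTM1, a glutathione transferase that many people lack through a deletion, was at 8.39 and 8.43 with the label HCT116 and at 8.28 and 8.31 with COLO205, against 7.08 and 6.84 in OVCAR5. GSTT1, another such enzyme, was detected on none of the 4 arrays, at 6.57 to 6.83, and on both OVCAR5 arrays, at 9.93 and 9.85. ERAP2, a peptidase of antigen processing with a common splicing variant, was at 11.69 and 11.43 in HCT116 and at 11.39 and 11.59 in COLO205. Between HCT116 and OVCAR5, and likewise between COLO205 and OVCAR5, 6 of the 16 genes detected in the pair were at least 2-fold apart on both arrays, where 1187 of 11926 and 1235 of 11606 of all genes were. For HCT116 and COLO205 it was 0 of 14, against 0.307% of all genes, so a count of 0 is near the background.

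Genes of mismatch repair and driver genes gave no call by limma. Of 9 mismatch repair genes 7 had a named probe and 6 were measured. An unadjusted p under 0.05 was found for 2 of them, against 11.5% of all genes. MSH6, a subunit of the mismatch sensor, was at 10.75 and 10.66 in HCT116 and 10.43 and 10.46 in COLO205, a difference of 0.26 (adjusted p of 0.56 by limma), and MSH3, another such subunit, was at 14.08 and 14.04 against 14.07 and 14.31. EXO1, the exonuclease of repair, was 0.39 higher in HCT116 and PMS2, an endonuclease of repair, differed by -0.05. Of 11 driver and tumour suppressor genes 7 had a named probe and 6 were measured. An unadjusted p under 0.05 was found for 1 of them, again against 11.5%. TGFBR2, a receptor of growth control, was at 8.87 and 8.71 in HCT116 and 8.22 and 8.47 in COLO205, against 11.46 and 11.54 in OVCAR5. CDKN2A, which encodes cell cycle inhibitors, was detected on all 4 arrays at 7.91 to 8.32 and on neither OVCAR5 array. The signals say nothing of mutations in these genes.

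The measured cancer-testis and HOX genes had differences of at most 0.43 in size between the labels, where 0.15 was the median absolute difference of all genes. MAGEB2, a cancer-testis gene that normal tissue outside the testis does not use, was at 11.37 and 11.27 with the label HCT116 and at 11.17 and 11.13 with COLO205, against 6.56 and 6.67 in OVCAR5. Of 28 listed cancer-testis genes 8 were measured, with the largest difference 0.29 in size. Between HCT116 and OVCAR5 4 of the 8 genes detected in the pair were at least 2-fold apart on both arrays. For COLO205 and OVCAR5 it was 4 of 7. Over all genes the counts were 1187 of 11926 and 1235 of 11606. Of 39 HOX genes 12 were measured, 0 passed limma and 1 had an unadjusted p under 0.05, against 11.5% of all genes. HOXB6, one of these genes of body position, had the largest difference, 0.43, with 8.21 and 8.05 in HCT116 and 7.67 and 7.73 in COLO205. MAGEB2 and HOXB8, another of them, stood at least 2-fold above OVCAR5 under both labels.

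The genes that did part the labels were led by HCT116-high genes. Of the 27 genes, chosen by their gap on the same arrays, 26 passed limma, 18 were detected on all 4 arrays, and their folds ran from 2.25 to 5.86 with a median of 3.0. They lay on 16 chromosomes. OVCAR5 stood above both labels for 9 of them, between them for 11 and below both for 7. PROM1, which encodes the stem cell surface protein CD133, had the widest gap, at 9.50 and 9.34 in HCT116 and 6.88 and 7.0 in COLO205, where it was not detected. It was at least 5.18-fold higher in HCT116 (adjusted p of 1.8e-04 by limma). PROM1 was chosen for its gap on these arrays and passed the detection filter through the HCT116 arrays, so this p-value adds no support. CASP4, an inflammatory caspase that senses bacterial lipopolysaccharide, was at 10.30 and 9.41 against 7.36 and 7.25, 5.86-fold higher. DDIT4L, an inhibitor of mTOR signalling, was 5.73-fold higher, at 9.71 and 10.58 against 7.79 and 7.46. S100A4, a calcium-binding protein of motile cells, was at 12.41 and 12.88 against 10.76 and 10.41, and its other probe gave 2.03 on the log2 scale where the first gave 2.06.

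**Figure D3:**
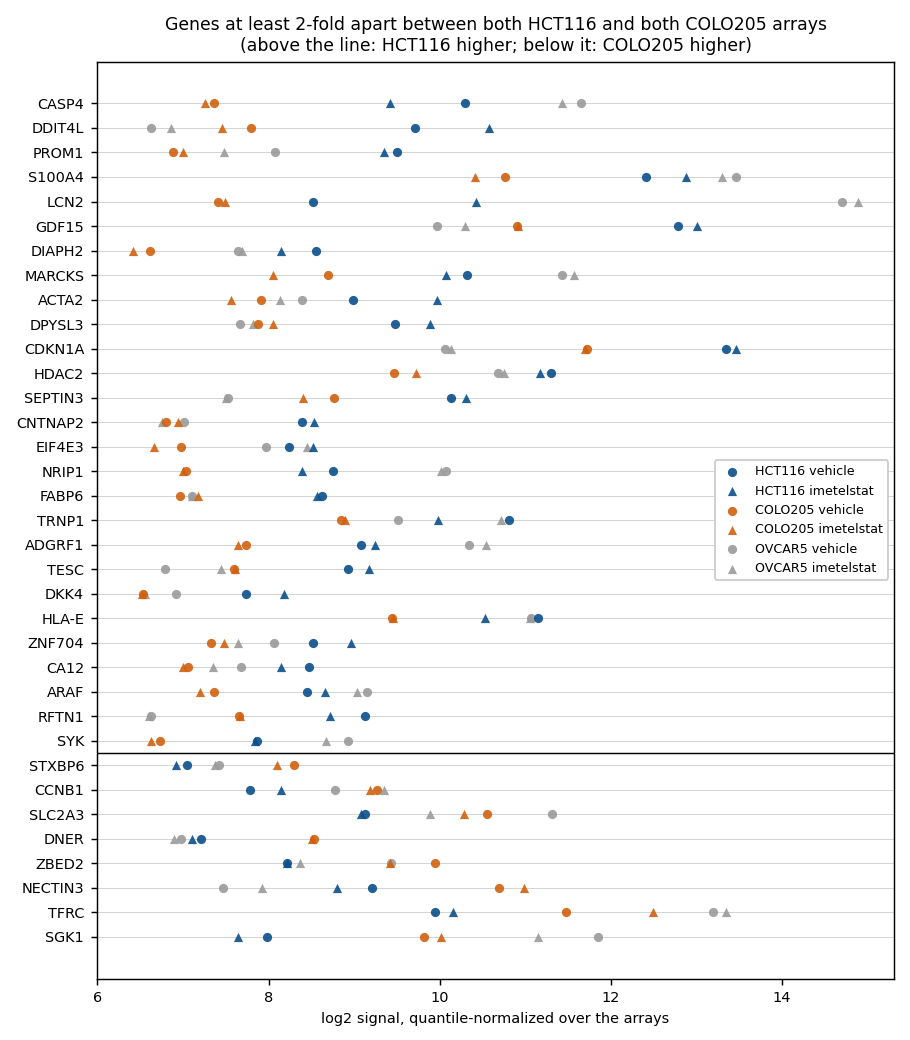
Log2 signal of the 27 genes at least 2-fold higher on both HCT116 arrays (above the line) and the 8 at least 2-fold higher on both COLO205 arrays (below it), on each of the 6 arrays (circles vehicle, triangles imetelstat, blue HCT116, orange COLO205, grey OVCAR5). Blue and orange points do not overlap by selection, and OVCAR5 lies above, between or below them.

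The 6 on-off genes besides PROM1 had lower signals. DIAPH2, a formin that builds actin filaments, was at 8.55 and 8.15 in HCT116 and 6.61 and 6.42 in COLO205, at least 2.47-fold apart. NRIP1, a corepressor of nuclear receptors, was at 8.76 and 8.38 against 7.03 and 7.0, at least 2.88-fold, and stood at 10.07 and 10.02 in OVCAR5. CNTNAP2, a neurexin-like adhesion protein, was at 8.39 and 8.53 against 6.80 and 6.94, at least 2.66-fold, and EIF4E3, a cap-binding protein, was at least 2.52-fold apart. The tyrosine kinase SYK and the Wnt antagonist DKK4 were at least 1.74-fold and 1.89-fold apart when set against the lowest detected signal. All 6 passed limma, with adjusted p from 0.0016 for CNTNAP2 and DIAPH2 to 0.0061 for SYK. They were chosen for their gap on these arrays and passed the detection filter through the HCT116 arrays, so these p-values add no support. NRIP1 and SYK were brighter still in OVCAR5.

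The sequences before the start sites are shown for the on-off genes with a single start in the table used, DIAPH2 and CNTNAP2, and for the gene of the widest gap with a single start in each direction, CASP4 and NECTIN3, because silencing of a gene in one culture is known to involve the CG dinucleotides of its promoter. Each run is the 250 bases before the RefSeq start, 5′ to 3′ on the gene's strand, with CG dinucleotides in capitals.
DIAPH2, GRCh38.p14 chrX:96684592-96684841, plus strand: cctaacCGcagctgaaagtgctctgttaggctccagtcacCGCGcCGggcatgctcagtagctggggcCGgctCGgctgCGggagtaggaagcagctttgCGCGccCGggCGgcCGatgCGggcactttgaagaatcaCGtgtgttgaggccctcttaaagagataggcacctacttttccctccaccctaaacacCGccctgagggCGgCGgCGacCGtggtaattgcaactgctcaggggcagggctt
CNTNAP2, GRCh38.p14 chr7:146116551-146116800, plus strand: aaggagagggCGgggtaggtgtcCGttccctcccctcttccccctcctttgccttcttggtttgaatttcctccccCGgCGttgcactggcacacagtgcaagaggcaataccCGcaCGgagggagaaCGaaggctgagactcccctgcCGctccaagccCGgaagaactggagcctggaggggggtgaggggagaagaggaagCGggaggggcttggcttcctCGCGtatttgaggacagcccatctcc
CASP4, GRCh38.p14 chr11:104968575-104968824, minus strand: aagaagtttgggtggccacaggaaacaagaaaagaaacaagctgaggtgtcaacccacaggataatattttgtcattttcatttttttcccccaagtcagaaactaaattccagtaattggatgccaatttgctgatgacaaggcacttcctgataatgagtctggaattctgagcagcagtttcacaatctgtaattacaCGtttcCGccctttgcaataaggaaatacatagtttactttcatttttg
NECTIN3, GRCh38.p14 chr3:111071566-111071815, plus strand: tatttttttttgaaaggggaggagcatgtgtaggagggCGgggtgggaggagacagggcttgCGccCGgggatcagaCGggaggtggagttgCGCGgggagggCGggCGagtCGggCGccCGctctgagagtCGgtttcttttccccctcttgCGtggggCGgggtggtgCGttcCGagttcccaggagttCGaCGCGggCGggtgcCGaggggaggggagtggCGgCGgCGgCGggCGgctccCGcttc
The DIAPH2 window held 19 CG dinucleotides, as many as or more than which 34.6% of the 35116 windows of the same length held, and that of CNTNAP2 held 12, reached by 48.5%. CASP4 had 2, reached by 85.3%, and NECTIN3 had 27, reached by 17.7%. The genes that parted the labels thus included start sites both rich and poor in CG. Of the 27 genes higher in HCT116, 22 matched the table with 33 starts and a median of 17 CG, of the 8 higher in COLO205 6 matched with 10 starts and a median of 13.5, and the starts of all genes tested had a median of 20. Methylation was not measured.

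Among the other HCT116-high genes were regulators of stress and of the cell skeleton. GDF15, a stress cytokine and p53 target, was at 12.78 and 13.00 in HCT116 and 10.91 and 10.91 in COLO205, 3.96-fold higher (adjusted p of 8.2e-04 by limma). CDKN1A, which encodes the cell cycle inhibitor that p53 induces, was at 13.35 and 13.46 against 11.72 and 11.70, 3.24-fold higher, and its dimmer probe gave 0.64 on the log2 scale where the first gave 1.69. For both genes the arrays of each label lay closer to each other than the labels did. MARCKS, an actin-binding substrate of protein kinase C, was at 10.32 and 10.08 against 8.69 and 8.05. ACTA2, the actin of smooth muscle, was at 8.99 and 9.96 against 7.91 and 7.55, and DPYSL3, a cytoskeletal protein of neurons, at 9.48 and 9.89 against 7.87 and 8.05. HDAC2, a histone deacetylase, was at 11.30 and 11.17 against 9.47 and 9.72, a log2 difference of 1.64, while its other probe, near background, gave 0.18.

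FABP6, the bile acid carrier of the ileum, was at 8.62 and 8.56 against 6.97 and 7.17 and ADGRF1, an adhesion receptor, at 9.08 and 9.25 against 7.74 and 7.65. SEPTIN3, a filament-forming septin, was at 10.13 and 10.31 against 8.77 and 8.41. For ADGRF1, FABP6, S100A4 and SEPTIN3 every other detected probe also parted the labels at least 2-fold. Over all genes that parted the labels 11 had another detected probe, and of their 13 other probes 8 were at least 2-fold apart and all 13 had the HCT116 and COLO205 arrays apart in the same direction. LCN2, a carrier of bacterial iron chelators, was the member nearest to the limit, with a gap of 1.03, and the next gene outside it, CTSH, had 0.99. LCN2 was at 8.51 and 10.43 in HCT116 and 7.4 and 7.49 in COLO205 and did not pass limma (adjusted p of 0.088). Its HCT116 arrays lay far apart.

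Genes higher on the COLO205 arrays were fewer and were led by SGK1, a kinase that serum and steroid hormones induce. It was at 9.82 and 10.01 in COLO205 and 7.98 and 7.64 in HCT116, 4.30-fold higher in COLO205 (adjusted p of 8.2e-04 by limma), and at 11.85 and 11.15 in OVCAR5, which shared the RPMI1640 medium. Both of its other probes also parted the labels at least 2-fold. TFRC, the receptor for iron uptake, was at 11.47 and 12.49 against 9.94 and 10.16, 3.82-fold higher, and at 13.19 and 13.35 in OVCAR5. SLC2A3, a glucose transporter, was at 10.55 and 10.28 against 9.13 and 9.08, and at 11.31 and 9.88 in OVCAR5. Of the 8 genes OVCAR5 was above both labels for 3, namely SGK1, TFRC and SLC2A3 by their means, between them for 3 and below both for 2. The part of the medium in these differences was not tested.

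NECTIN3, an adhesion protein of cell junctions, was at 10.69 and 10.99 in COLO205 and 9.21 and 8.80 in HCT116, 3.56-fold higher in COLO205, and its other probe also parted the labels at least 2-fold. DNER, a membrane ligand of Notch in neurons, was at 8.53 and 8.50 against 7.21 and 7.10, and ZBED2, a zinc finger protein, at 9.95 and 9.42 against 8.21 and 8.22. STXBP6, a syntaxin-binding protein, was 2.32-fold higher in COLO205. CCNB1, the cyclin of entry into mitosis, was the member nearest to the limit, with a gap of 1.04, and WNT16, a secreted Wnt ligand at 8.56 and 8.05 against 7.06 and 7.05, lay just outside it at 0.99. TM4SF18, a multipass membrane protein, was detected on both COLO205 arrays, at 7.71 and 8.23, and on neither HCT116 array, at 6.81 and 6.84. Its gap of 0.87 was under the 2-fold limit, so it did not count as on in COLO205 and off in HCT116.

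The labels were also compared within each treatment, with 1 array per label and no test. With vehicle 127 genes were at least 2-fold higher in HCT116 and 55 at least 2-fold higher in COLO205, and with imetelstat 115 and 66. Of these 37 and 10 were so under both treatments, and 0 genes were at least 2-fold apart in opposite directions. A gene could be 2-fold apart under both treatments without parting all 4 arrays 2-fold, which 27 and 8 did.

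**Figure D4:**
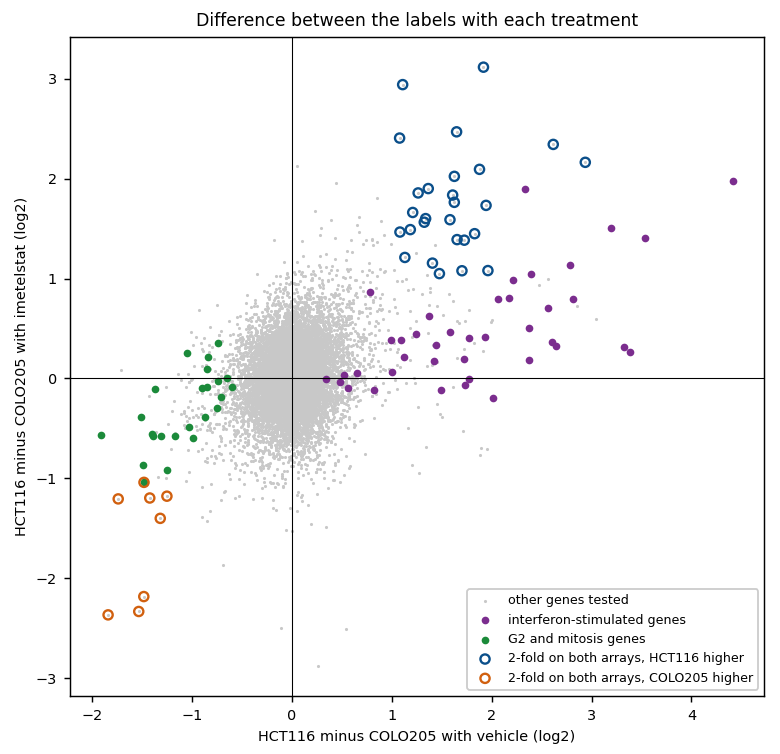
Log2 difference HCT116 minus COLO205 of 11413 genes with vehicle (x axis) and with imetelstat (y axis), with interferon-stimulated genes in purple, genes of G2 and mitosis in green and the 27 and 8 genes that parted the labels ringed in blue and orange. The purple points reach 4.41 with vehicle and, apart from that of IRF9, lie lower with imetelstat, and the green points lie left of 0 with vehicle.

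Genes of mitosis were lower on the HCT116 arrays. All 24 listed genes of G2 and mitosis were measured and had lower means in HCT116, against 49.4% of all genes. Of these 19 were higher on both COLO205 arrays, against 20.4%, and 3 passed limma, all higher in COLO205, against 0.228%. Their median difference was -0.69, -1.01 with vehicle and -0.34 with imetelstat, against 0.00 over all genes tested. CCNB1 was at 7.78 and 8.14 in HCT116 and 9.26 and 9.19 in COLO205. AURKA, the kinase of the spindle poles, was at 9.55 and 10.11 against 11.05 and 10.98, and CDC20, an activator of the anaphase-promoting complex, at 11.98 and 12.20 against 13.23 and 13.12 (adjusted p of 0.022 for AURKA and 0.012 for CDC20 by limma). KIF20A, a kinesin of cytokinesis, was at 8.87 and 9.92 against 10.78 and 10.49 and did not pass (adjusted p of 0.095). By contrast the 18 measured genes of DNA replication had a median of 0.09. Of these 0 passed limma and 3 had an unadjusted p under 0.05, against 11.5% of all genes.

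Targets of p53 were mostly higher in HCT116. Of 25 listed genes 21 were measured, 19 had higher means in HCT116, against 50.6% of all genes, 10 were higher on both HCT116 arrays, against 22.1%, and 0 on both COLO205 arrays, against 20.4%. GDF15, CDKN1A and XPC, 3 in all, passed limma, against 0.578%. The median was 0.33, 0.31 with vehicle and 0.47 with imetelstat. PLK3 and POLH passed the detection filter through the HCT116 imetelstat array alone, so their direction adds no support. XPC, a sensor of DNA damage, was at 9.88 and 10.50 in HCT116 and 9.21 and 8.88 in COLO205 (adjusted p of 0.045 by limma). TP53INP1, a p53-induced stress protein, was at 8.36 and 9.66 against 7.92 and 7.70, and SESN1, an inhibitor of mTOR signalling, at 8.0 and 8.86 against 7.4 and 7.48, and neither passed (adjusted p of 0.16 for TP53INP1 and 0.12 for SESN1). GDF15 and CDKN1A were lower in OVCAR5 than under either label, at 9.97 and 10.29 and at 10.06 and 10.13.

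Interferon-stimulated genes, the antiviral genes that interferon receptors switch on, differed most with vehicle. All 40 measured of 42 listed had higher means in HCT116 and 25 were higher on both HCT116 arrays, against 50.6% and 22.1% of all genes. By limma 0 passed in either direction and 26 had an unadjusted p under 0.05, against 11.5% of all genes. Their median difference was 1.01, 1.77 with vehicle and 0.37 with imetelstat, with the HCT116 vehicle array above the other 3 in the 3 genes that follow. IFI27, a mitochondrial protein induced by interferon, was at 12.76 and 9.23 in HCT116 and 8.35 and 7.26 in COLO205 (adjusted p of 0.14 by limma). HERC5, the ligase that attaches ISG15, was at 12.90 and 10.63 against 9.70 and 9.12, and IFITM1, which blocks virus entry, at 11.56 and 9.01 against 8.03 and 7.60. For these genes the HCT116 imetelstat array lay nearer to the COLO205 vehicle array than to the HCT116 vehicle array. Of the 40, MX2, OAS2, DHX58, RSAD2, CMPK2, SAMD9L, IFIT3 and EPSTI1 passed the detection filter through HCT116 arrays alone. Their direction thus adds no support to the counts.

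Targets of NF-kB and antigen presentation genes followed. Of 16 measured NF-kB targets 14 had higher means in HCT116, against 50.6% of all genes, with a median of 0.49, 0.81 with vehicle and 0.04 with imetelstat. By limma 0 passed and 6 had an unadjusted p under 0.05, against 11.5% of all genes. Of the 14, CXCL2, CCL20, TRAF1, IL32 and CFB passed the detection filter through HCT116 arrays alone, so their direction adds no support. The chemokine gene CXCL8 was at 11.99 and 9.24 in HCT116 and 8.94 and 8.65 in COLO205 (adjusted p of 0.30 by limma), and the inhibitor NFKBIA at 12.47 and 10.96 against 10.56 and 10.68. All 14 measured HLA and antigen presentation genes had higher means in HCT116, against 50.6% of all genes, with a median of 0.32, and 1 passed limma, against 0.578%. That was HLA-E, a ligand of receptors on natural killer cells, at 11.15 and 10.53 against 9.44 and 9.45 (adjusted p of 0.012 by limma). The peptide transporter gene TAP1 was at 11.94 and 10.82 against 10.58 and 10.09 (adjusted p of 0.20). CIITA, also in this list, passed the detection filter through the HCT116 imetelstat array alone, so its direction adds no support.

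**Figure D5:**
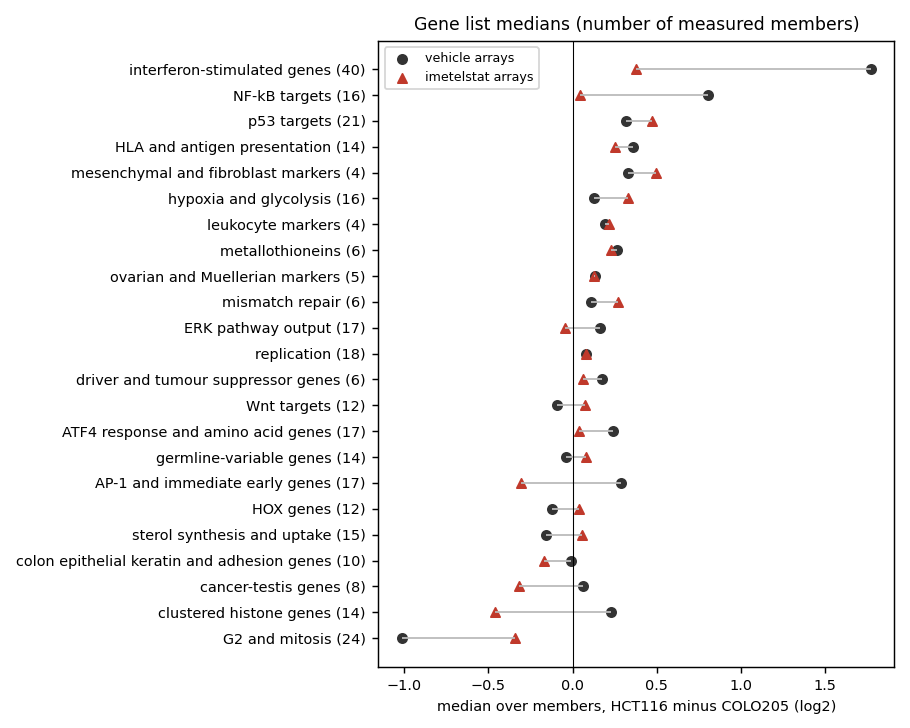
Median over the measured members of each list of the log2 difference HCT116 minus COLO205, with vehicle (black circles) and with imetelstat (red triangles), for lists with at least 4 measured members. The interferon-stimulated genes lie at 1.77 and 0.37 and the genes of G2 and mitosis at -1.01 and -0.34.

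Lists that follow the mutated pathways or the media of the lines gave no limma call. The 17 measured output genes of the ERK pathway had a median of 0.12. Of these 0 passed limma and 4 had an unadjusted p under 0.05, against 11.5% of all genes. The feedback inhibitor SPRY4 was at 9.95 and 10.08 in HCT116 and 9.65 and 8.57 in COLO205. The 12 measured Wnt targets had a median of 0.08, 0 passed limma and 3 had an unadjusted p under 0.05, against the same 11.5%. AXIN2, a Wnt feedback gene, was at 8.59 and 8.76 against 8.87 and 9.76, and DKK1, a Wnt antagonist, was bright under both labels, at 12.53 and 12.07 against 12.79 and 12.76, and at 8.39 and 8.43 in OVCAR5. Genes of the ATF4 response, of sterol synthesis and of hypoxia, which can follow the medium or density of a culture, had medians of 0.04, -0.07 and 0.22, the sign of the second turning with median scaling. By limma 0 members passed. In the same order 3 of 17, 1 of 15 and 6 of 16 measured members had an unadjusted p under 0.05, against 11.5% of all genes. Of the 16 measured hypoxia genes 14 had higher means in HCT116 and 10 were higher on both HCT116 arrays, against 50.6% and 22.1% of all genes, and 1 was higher on both COLO205 arrays. ADM, a hypoxia-induced peptide hormone, was at 13.92 and 13.78 against 13.18 and 12.96 (adjusted p of 0.060). The 6 measured metallothioneins had a median of 0.19, 0 passed limma and 2 had an unadjusted p under 0.05, against 11.5% of all genes.

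Markers of other cells did not separate the labels as lists. Of the 4 measured mesenchymal markers 2 had higher means in HCT116, against 50.6% of all genes, and both passed limma, against 0.578%. They were ACTA2 and TWIST1, a transcription factor of mesoderm, the latter at 7.47 and 7.50 against 6.66 and 6.74. ACTA2 was among the 27 genes chosen by their gap on these arrays. TWIST1 passed the detection filter through the HCT116 arrays alone. Both calls thus add no support. VIM and the collagen gene COL1A1 had lower means. The leukocyte markers PTPRC, the common antigen of white blood cells, and CD3E, of T cells, were detected on no array. Of the 4 leukocyte markers that were measured 0 passed limma and 1 had an unadjusted p under 0.05, against 11.5% of all genes. It was CD68, a lysosomal protein of macrophages and many other cells, at 11.23 and 10.18 against 9.58 and 9.61. Of the 5 measured ovarian markers 0 passed limma and 1 had an unadjusted p under 0.05, again against 11.5%. It was MSLN, a surface protein of mesothelium, at 10.44 and 10.99 against 9.88 and 10.07. On both OVCAR5 arrays MSLN, MUC16, FOLR1 and WFDC2 were detected, and PAX8 on the vehicle array alone. The ovarian markers WT1, ESR1, SOX17, PAX2 and EMX2 were detected on neither OVCAR5 array.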

How the data were processed

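The 6 arrays were Illumina HumanHT-12 V4, all of 1 chip, with 1 array per position, so position and label cannot be told apart. The authors deposited signal intensities from GenomeStudio, bead averages on a linear scale without normalization or background subtraction, and deposited a detection p-value per probe. Their processed intensities, which the authors quantile-normalized with lumi, served as an alternative. Here the log2 of each signal was taken and limma 3.58.1 in R 4.3.3 made the 6 arrays alike by quantiles. On the 4 arrays 19441 of 47231 probes passed detection once or more, 4323 of them with no single symbol in the annotation used. Each gene was read from its brightest detected probe. Some listed genes have no named probe and are not reported here.

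Labels were compared with lmFit and eBayes, tested on simulated data first, and by size and detection. For a gene not detected under a label the lowest detected signal of each array replaced its own where higher, and the fold is given as a bound. Genes were named from the lists, by the 15 widest gaps in each direction, by on-off calls and by list membership with limma calls. CTSH, CLDN4, IRF9, EPCAM, ESRP1, VIM, COL1A1, PTPRC, CD3E, GSTT1, HOXB8, AXIN2, DKK1, SPRY4 and the chromosome medians were also chosen after values were seen. So were the list members named for detection through HCT116 arrays alone and the ovarian markers named for OVCAR5. Members and 24 lists were chosen with earlier results of these data known. Sequences are RefSeq, GRCh38.p14, while the files name no build. Alternatives were normexp with an offset of 16, other scalings, filters, limits, probe summaries, models and leaving out each array. Lists and figures were made in Python 3.11.15 (pandas 2.3.3, numpy 2.4.6, matplotlib 3.10.9).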

Additional observations from a re-analysis of the deposited data

Results flagged for a closer look

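In 2 lists the median difference between HCT116 and COLO205 had opposite signs under the treatments and was at least 0.2 in size under each, with 1 array per label and treatment, and this was not tested. Other lists with a smaller median under at least 1 treatment also changed sign. The median of 14 measured clustered histone genes was 0.22 with vehicle and -0.46 with imetelstat, 0.68 apart. H2AC19, a gene for histone H2A, was at 8.90 and 7.70 in HCT116 and 8.65 and 10.58 in COLO205, vehicle first, and H2AC20 at 8.80 and 7.89 against 8.91 and 10.39. The sequences of these genes are almost the same, so reads of one gene by the probe of the other cannot be told apart. The median of 17 measured AP-1 and immediate early genes was 0.29 with vehicle and -0.31 with imetelstat, 0.60 apart. JUN, a subunit of AP-1, was at 10.12 and 8.83 against 8.62 and 9.22, and FOSB, another subunit, at 7.24 and 7.21 against 7.30 and 8.74. With median scaling the AP-1 medians were 0.32 and 0.02 and with no scaling 0.40 and 0.14, so their signs then no longer differed, while the histone medians kept opposite signs. The COLO205 imetelstat array had the highest histone median of the 4 arrays, at 8.94, and the HCT116 vehicle array the highest AP-1 median, at 9.83. The COLO205 imetelstat array had a mean signal of 359.8 against 458.6 for the COLO205 vehicle array, and the part of that in these values was not tested.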

How the results depend on the processing

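No count changed direction under the alternatives run. Neither did any gene that passed limma, parted the labels or had one of the 15 widest gaps in a direction. The other named genes were not followed through the alternatives. In the order of genes called by limma higher in HCT116 and in COLO205, then genes at least 2-fold higher on both HCT116 arrays and on both COLO205 arrays, then on-off genes, the main values were 66, 26, 27, 8 and 7. They were 28, 7, 81, 24 and 36 with normexp, 41, 4, 32, 3 and 7 with median scaling, 63, 4, 46, 3 and 9 with no scaling, 27, 15, 18 and 7 with detection required on all 4 arrays, where on-off genes cannot occur, 87, 42, 27, 8 and 3 with a detection p under 0.05, 32, 14, 27, 8 and 7 with no filter, and 116, 72, 34, 16 and 11 with each detected probe on its own. Treatment as a block gave 251 and 133. A limit of 1.5-fold gave 95, 40 and 17 for the last 3 counts and a limit of 3-fold gave 6, 1 and 1. Leaving out 1 array gave ranges of 1 to 223, 0 to 106, 29 to 117, 14 to 25 and 8 to 22, and the count of 0 had 717 genes at an unadjusted p under 0.05. Quantile normalization over the 4 arrays, the authors' processed values, the mean of probes, a fit on all 6 arrays and a variance trend kept the counts they give within 1.5 times the main ones. The share of limma calls higher in HCT116 was 71.7%, 80% with normexp, 91.1% with median scaling, 94% with no scaling and 61.7% over single probes. All 35 genes that parted the labels did so too with normexp, and 30 did with median scaling. Of 24 list medians 14 moved with median scaling by more than the SD between the list's vehicle and imetelstat median differences. The medians of AP-1, colon epithelial, HOX and sterol genes changed sign there, as did those of cancer-testis and histone genes with no scaling. The labels number no replicates, and the fit with treatment as a block is the paired one. For on-off genes the detection limit leaves the fold a bound.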
